A study of Mus musculus with 4 samples.

Results

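Genes of the major histocompatibility complex (MHC) and of the machinery that loads its molecules with peptide were followed in hematopoietic stem cells (HSCs) of mice with and without the transcriptional repressor Gfi1b. The 10 genes were chosen by name for their role: H2-K1, H2-D1, B2m, Tap1 and Tapbp of the class I pathway, H2-Aa, H2-Ab1, H2-Eb1 and Cd74 of the class II pathway, and Ciita, which switches the class II genes on. All 10 symbols matched 1 Ensembl gene each, among 37140 genes listed in all 4 libraries. The cells came from tibiae, femora and humeri of C57Bl6 mice. They were sorted as HSCs (Lin- cKit+ Sca1+ Cd48- CD150+) or as CD41low/CD9low HSCs, with 1 library for each population and genotype. The gate that the methods give for HSCs names neither CD41 nor CD9, so HSCs may include CD41low/CD9low cells. The results of the study instead name CD41+/CD9+ HSCs. Every KO and WT mouse carried Rosa-Cre and received tamoxifen 2 weeks before harvest according to the methods. KO mice were Gfi1b fl/fl and WT mice Gfi1b wt/fl, so the controls also have 1 floxed allele. The design deposited with the data instead describes controls without Cre. The titles of the libraries name Gfi1, the paralogue of Gfi1b, whereas their genotype labels name Gfi1b. Bone marrow of 5 KO or 10 WT mice was pooled before sorting, so each library is 1 pool and the libraries of the same genotype may come from the same mice. Rosa-Cre is active in all tissues, and the deletion is not limited to HSCs.

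Class I molecules sit on nearly every nucleated cell. A heavy chain (here H2-K1 or H2-D1) pairs with β2-microglobulin (B2m) and holds a peptide that the proteasome has cut in the cytosol and that the Tap transporter has carried into the endoplasmic reticulum, where Tapbp, also called tapasin, bridges transporter and heavy chain. Class II molecules are pairs of an alpha and a beta chain (H2-Aa with H2-Ab1, and H2-Eb1 with an alpha chain that C57Bl6 mice do not express and that was not analysed here) that present peptides from endosomes and are best known from B cells, dendritic cells and macrophages. Their assembly depends on the invariant chain Cd74, and their transcription on Ciita.

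The HSC libraries had total counts on genes of 41690708 and 50781007, the CD41low/CD9low libraries of 12732079 and 19123185, at which 3 counts correspond to between 0.059 and 0.236 CPM (counts scaled to a library total of 1000000). The HSC markers Kit (989 to 1262 CPM) and Slamf1 (30.9 to 106 CPM) were present in all 4 libraries, while Cd48, on which cells were gated negative, was at 1.26 to 7.75 CPM. The whole-gene count of Gfi1b was higher in the KO libraries (1197 against 182 CPM in HSCs, 509 against 48.0 in CD41low/CD9low HSCs). A whole-gene count cannot show whether the floxed exons were lost, so it does not check the genotype labels. Megakaryocyte markers, summed over 7 genes that include Itga2b (CD41) and Cd9, were at 918 and 1053 CPM in HSCs and at 273 and 369 CPM in CD41low/CD9low HSCs, in the direction of the sort. With 1 library for each group no difference within a population or genotype has a replicate check, and intervals cover counting error only.

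The promoters of the heavy chains and of B2m are shown first, since these genes were the most abundant of the 10, and those of H2-Aa and H2-Eb1 because class II genes had the largest effects of population among the 10. RefSeq windows (GRCm38.p6, 250 bases before to 50 after a start site) were found for 7 of the 10 genes. They were searched on both strands for elements known from MHC promoters: the X box, the Y box (ATTGG), the interferon-stimulated response element ISRE, the gamma-activated site GAS (TTCNNNGAA) and the class I kappa B element. Capitals mark matches, and all sequences run 5′ to 3′ on the strand of the gene.
H2-K1, chr17:34000284-34000583, minus strand: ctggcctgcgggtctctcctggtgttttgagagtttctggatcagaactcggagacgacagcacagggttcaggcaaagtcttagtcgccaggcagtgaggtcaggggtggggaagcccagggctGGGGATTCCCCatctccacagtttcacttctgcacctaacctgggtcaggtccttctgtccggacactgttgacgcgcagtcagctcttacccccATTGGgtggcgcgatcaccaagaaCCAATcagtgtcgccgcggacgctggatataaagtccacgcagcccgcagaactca
H2-D1, chr17:35262844-35263143, plus strand: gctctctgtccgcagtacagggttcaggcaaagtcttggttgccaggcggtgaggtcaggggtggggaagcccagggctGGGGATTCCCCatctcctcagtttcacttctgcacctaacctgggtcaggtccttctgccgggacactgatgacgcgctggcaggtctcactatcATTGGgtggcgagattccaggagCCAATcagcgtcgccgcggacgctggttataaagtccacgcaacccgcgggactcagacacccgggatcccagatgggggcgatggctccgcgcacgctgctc
B2m, chr2:122147437-122147736, plus strand: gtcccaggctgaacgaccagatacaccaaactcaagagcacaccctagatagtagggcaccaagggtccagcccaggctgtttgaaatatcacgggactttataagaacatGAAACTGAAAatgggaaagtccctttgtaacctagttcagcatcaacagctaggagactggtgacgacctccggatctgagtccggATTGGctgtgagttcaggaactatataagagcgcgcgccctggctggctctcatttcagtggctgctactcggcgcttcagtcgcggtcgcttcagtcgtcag
H2-Aa, chr17:34287774-34288073, minus strand: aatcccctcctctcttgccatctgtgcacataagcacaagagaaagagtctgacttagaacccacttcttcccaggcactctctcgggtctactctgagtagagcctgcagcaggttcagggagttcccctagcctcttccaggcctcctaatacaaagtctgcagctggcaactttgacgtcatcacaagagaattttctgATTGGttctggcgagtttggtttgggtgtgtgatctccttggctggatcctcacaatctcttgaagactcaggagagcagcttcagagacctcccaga
H2-Eb1, chr17:34305617-34305916, plus strand: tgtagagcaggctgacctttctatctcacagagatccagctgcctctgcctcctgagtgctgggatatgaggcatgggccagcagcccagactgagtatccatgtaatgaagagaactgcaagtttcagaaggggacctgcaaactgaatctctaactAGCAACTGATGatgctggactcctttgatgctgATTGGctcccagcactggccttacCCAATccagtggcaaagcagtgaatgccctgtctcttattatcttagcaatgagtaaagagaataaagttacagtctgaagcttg

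Both heavy chain windows held the kappa B element, which was present in 16 of 32851 promoter windows (0.0487%), 125 bases before the start in H2-K1 and 171 bases before it in H2-D1. The B2m window held an ISRE (GAAACTGAAA), a motif of 3.44% of all windows, 139 bases before its start. The H2-Eb1 window had an X box (AGCAACTGATG) 92 bases and a Y box 59 bases before the start. An X box was found in 0.968% of all windows, and both elements together in 0.387%. H2-Aa matched the Y box pattern only, as did the windows of Tap1 and Tapbp, which are not printed. This short motif was present in 37.4% of all windows. A window without a match to a fixed pattern may still hold a variant of the element, so H2-Aa is not shown to lack an X box. No GAS matched in these windows, and it was found in 8.3% of all windows. A match is a description of the letters and no evidence that a factor binds.

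H2-K1 (33996017 to 34000347), Tapbp (33915899 to 33929292), Tap1 (34187553 to 34197225), H2-Ab1 (34257689 to 34269419), H2-Aa (34282744 to 34287823), H2-Eb1 (34305867 to 34316674) and H2-D1 (35262730 to 35267499) are on chromosome 17, B2m (122147686 to 122153083) is on chromosome 2, Ciita (10480059 to 10528418) on chromosome 16 and Cd74 on chromosome 18 (all GRCm38, GENCODE M21). Some exons are shared with a neighbour, namely 212 bases of Tap1 with Psmb9 and 329 bases of Ciita with Dexi on the opposite strand, and 149 bases of Tapbp with Zbtb22 on the same strand. The strand setting of the counting is not given in the sources used here. Of all 50-base windows of the longest coding transcript, 14.3% in H2-D1 and 8.79% in H2-K1 also occur in transcripts of other genes, mostly other class I heavy chains. None of the windows of B2m, H2-Aa, H2-Ab1, H2-Eb1, Cd74 or Ciita do. Reads aligned to more than 1 place were not counted, so the heavy chain counts are uncertain to that extent.

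Levels per length (CPM per kb of exon) placed B2m and the heavy chains, at 416 or more in every library, above all class II genes, at 72.7 or less. In the order WT HSCs, KO HSCs, WT CD41low/CD9low HSCs, KO CD41low/CD9low HSCs, B2m was at 1068, 1086, 827 and 908. In the same order H2-K1 was at 492, 438, 794 and 745, and H2-D1 at 482, 416, 673 and 800. B2m was the highest of the 10 genes in every library, and the order of the heavy chains changed between libraries, with H2-K1 above H2-D1 in 3 and below it in KO CD41low/CD9low HSCs. The transporter subunit Tap1 was at 48.9, 43.6, 63.2 and 56.9, and Tapbp at 48.1, 42.1, 75.5 and 73.7. These genes of the loading complex were close to each other in HSCs, while Tapbp was the higher in CD41low/CD9low HSCs. Cd74 was at 15.8, 11.01, 72.7 and 40.1, which made it the highest class II gene in 3 libraries and placed it just below H2-Ab1 in KO HSCs, where the levels were 11.01 and 11.9. H2-Ab1 was at 13.9, 11.9, 30.03 and 19.8, H2-Aa at 10.2, 8.46, 22.7 and 16.0, and H2-Eb1 at 5.72, 3.39, 19.5 and 9.98. Ciita was the lowest gene throughout, with 0.931, 0.687, 1.61 and 1.34 (451, 273, 195 and 244 counts).

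**Figure D1:**
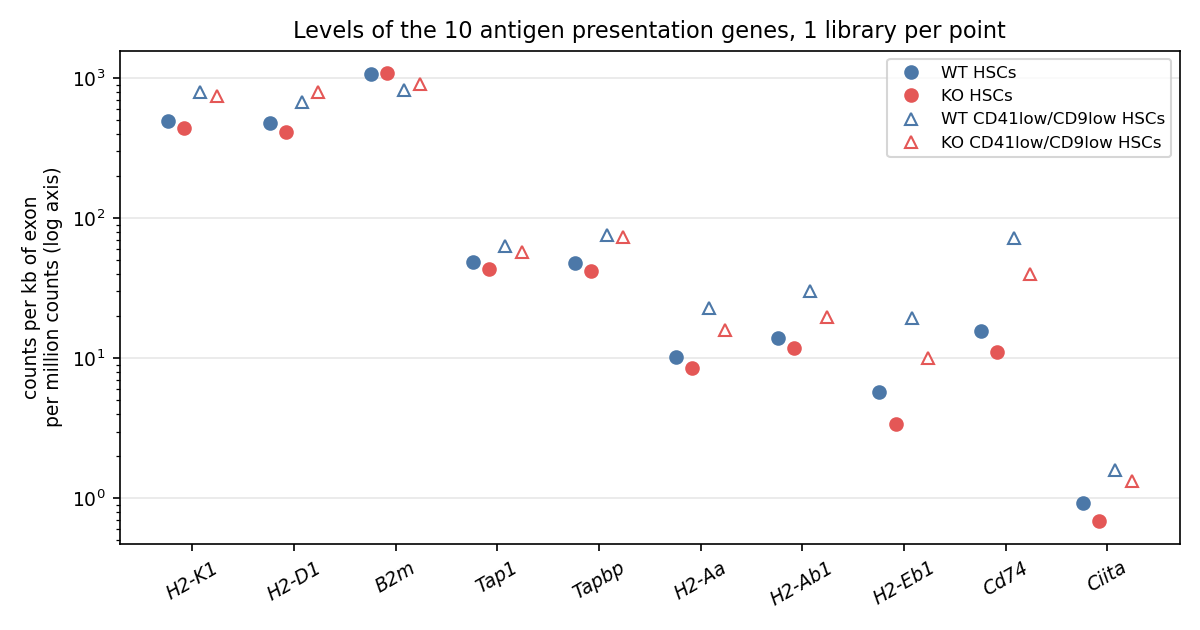
Level per length (log axis, CPM per kb of exon) of each of the 10 genes, with 1 point for each library, circles for HSCs, triangles for CD41low/CD9low HSCs, blue for WT and red for KO. B2m, H2-K1 and H2-D1 lie between 416 and 1086, Ciita between 0.687 and 1.61, and for 9 genes both triangles are above both circles.

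The proportions among these genes differed between libraries. The 3 class II chains together had 3.06% of the per-length level of H2-K1 and H2-D1 in WT HSCs, 2.78% in KO HSCs, 4.92% in WT CD41low/CD9low HSCs and 2.97% in KO CD41low/CD9low HSCs. WT CD41low/CD9low HSCs thus lay above the other 3 libraries. Relative to the 3 chains, the per-length level of Cd74 was 0.529 (WT) and 0.464 (KO) in HSCs, but 1.01 (WT) and 0.874 (KO) among CD41low/CD9low cells. H2-Eb1 was at 0.411 and 0.285 of the level of H2-Ab1 for the HSC libraries, against 0.650 and 0.503 for the CD41low/CD9low libraries. H2-Aa kept close to 0.711 to 0.808 of H2-Ab1 in all libraries. B2m, in turn, was at 1.10 and 1.27 times the heavy chains in HSCs and at 0.564 and 0.587 times in CD41low/CD9low HSCs.

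The first comparison asks how CD41low/CD9low HSCs differ from HSCs, over both genotypes. Most of the 10 genes were higher in CD41low/CD9low HSCs, and the class II chains and Cd74 had the largest log2 effects among them. In a fit to all 4 libraries with genotype as covariate, 7 of the 10 genes rose at an adjusted p under 0.05 and none fell (edgeR's quasi-likelihood test, Benjamini-Hochberg adjustment), where 7.36% of the 16262 genes tested were higher and 10.6% lower. The median log2 effect of the 10 genes was 0.74, against -0.03 over all genes. The 4 called class II genes were Cd74, with a log2 effect of 1.98 (adjusted p = 3.22e-05, edgeR), H2-Eb1 with 1.61 (adjusted p = 0.00133, edgeR), H2-Aa with 0.98 (adjusted p = 0.00234, edgeR) and H2-Ab1 with 0.86 (adjusted p = 0.00644, edgeR). Of the class I heavy chains, H2-K1 rose by 0.67 (adjusted p = 0.00984, edgeR) and H2-D1 by 0.65 (adjusted p = 0.0161, edgeR), and Tapbp by 0.67 (adjusted p = 0.00587, edgeR). In bulk samples fewer cells of a type and less RNA per cell cannot be told apart.

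The WT and the KO pair were also read separately. In WT 7 of the 10 ratios were above 1.5 and in KO 8 (19.2% of all genes in each), and 9 were above 1 in each (46.8% of all genes in WT, 47.6% in KO, 33.7% in both). For Cd74 the ratio of normalized counts was 4.41 (95% counting interval 4.09 to 4.74) in WT and 3.48 (3.18 to 3.81) in KO. For H2-Eb1 it was 3.26 (2.88 to 3.69) in WT and 2.82 (2.40 to 3.30) in KO. H2-Aa had ratios of 2.13 and 1.81 and H2-Ab1 of 2.06 and 1.59. The 3 class II chains and Cd74 were thus above 1.5 in both genotypes, as were 9.15% of all genes, but with a correction for exon length H2-Ab1 in KO was not (log2 ratio 0.47, uncorrected 0.67). That correction left 5 of the 10 genes above 1.5 in WT and 6 in KO, with H2-K1 below the cutoff in both genotypes and Tapbp below it in WT. H2-K1 had ratios of 1.54 and 1.63, while H2-D1 was at 1.34 (1.32 to 1.36) in WT and at 1.84 (1.82 to 1.87) in KO. For H2-D1 the genotypes therefore differed by more than counting error, and this was not particular to H2-D1. The intervals of WT and KO did not overlap for Cd74, H2-Aa, H2-Ab1, H2-K1, Tapbp and B2m either, whereas those of H2-Eb1, Tap1 and Ciita overlapped. The share of all genes without overlap was not computed, so this list does not set these genes apart from others.

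Of the remaining 3 genes none passed the test. Ciita had a log2 effect of 0.81 (adjusted p = 0.0849, edgeR), with ratios of 1.65 (1.39 to 1.95) in WT and 1.87 (1.56 to 2.23) in KO. Tap1 had a log2 effect of 0.32 (adjusted p = 0.117, edgeR) and ratios of 1.24 and 1.25. B2m, the partner chain of the heavy chains, was the only one of the 10 with a ratio below 1, 0.741 (0.724 to 0.757) in WT and 0.800 (0.785 to 0.815) in KO, and a log2 effect of -0.38 (adjusted p = 0.0793, edgeR). It passed the threshold with DESeq2 (adjusted p = 0.0303) and with edgeR's older fit (adjusted p = 0.0328). The fit has 1 residual degree of freedom. The HSC libraries list 38293 genes and the CD41low/CD9low libraries 41214. Population cannot be told apart from this difference in the gene list or from depth. Over all genes the median log2 ratio between the populations in KO ranged from 0.18 to -0.28 across classes of exon length.

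**Figure D2:**
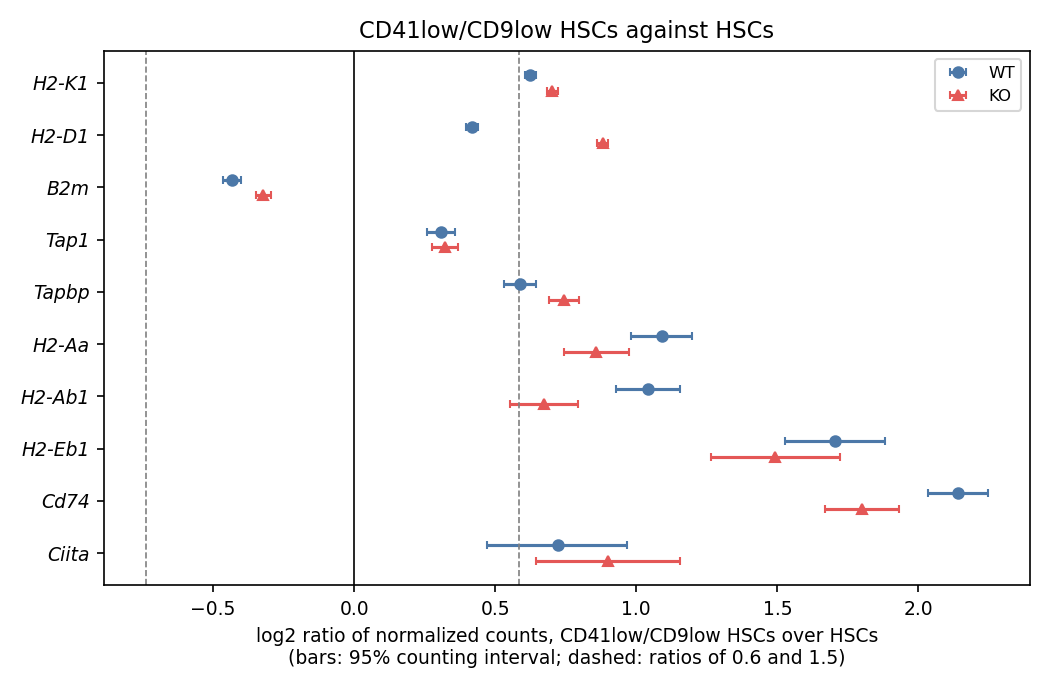
Log2 ratio of normalized counts in CD41low/CD9low HSCs over HSCs for each gene, in WT (blue) and KO (red), with 95% counting intervals as bars and dashed lines at ratios of 0.6 and 1.5. Cd74 and H2-Eb1 lie farthest to the right in both genotypes, and B2m alone lies left of 0.

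Other genes of antigen presentation were grouped by role. The immunoproteasome, a form of the proteasome that cuts peptides suited to class I, and its activator were higher in CD41low/CD9low HSCs for 5 of 5 genes. Psme2, a subunit of the activator, rose by 0.83 on the log2 scale (adjusted p = 0.00304, edgeR), the catalytic subunit Psmb8 by 0.70 (adjusted p = 0.00546, edgeR) and its partner Psmb9 by 0.70 (adjusted p = 0.00733, edgeR). Psme1, the most abundant of them per length, rose by 0.55 (adjusted p = 0.0152, edgeR). Of 5 counterparts in the constitutive proteasome 1 rose and 1 fell. Psmb6, which Psmb9 replaces, rose by 0.55 (adjusted p = 0.0238, edgeR), and the nuclear activator Psme4 fell by 1.05 (adjusted p = 0.000552, edgeR).

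Of 20 tested genes for other class I and class I-like heavy chains 9 rose and 1 fell, with a median log2 effect of 0.56. H2-T22 rose by 1.02 (adjusted p = 0.000976, edgeR), H2-T23, the mouse Qa-1 molecule, by 0.72 (adjusted p = 0.00361, edgeR), H2-Q4 by 0.62 (adjusted p = 0.0087, edgeR) and the lipid-presenting Cd1d2 by 2.64 (adjusted p = 0.00387, edgeR), from 67 and 51 counts in HSCs to 82 and 197 in the shallower libraries. H2-T24 fell by 0.63 (adjusted p = 0.0439, edgeR). Counts of these paralogs are uncertain where they share sequence. Among 6 genes of peptide loading and trimming, Tapbpl, the tapasin-like editor, rose by 1.09 (adjusted p = 0.00233, edgeR) and the others did not pass. Calr, the chaperone calreticulin and the most abundant of this list, had a log2 effect of 0.21 (adjusted p = 0.32, edgeR).

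Accessory genes of the class II pathway were read next. Of 6 tested genes for further class II chains and chaperones 1 rose, H2-DMb1, a chain of the peptide editor H2-DM, by 0.64 (adjusted p = 0.0444, edgeR). Of 8 genes for endosomal processing and class II turnover 1 rose, Ctss, the protease that trims the invariant chain, by 0.87 (adjusted p = 0.0404, edgeR). Ctsd, the most abundant of that list, had a log2 effect of 0.21 (adjusted p = 0.299, edgeR). Among 16 regulators 1 rose and 3 fell. The interferon-responsive factor Irf1 rose by 0.76 (adjusted p = 0.00541, edgeR), while the kinase Jak2 fell by 0.68 (adjusted p = 0.0061, edgeR) and the transcription factor Creb1 by 0.49 (adjusted p = 0.0262, edgeR). Jak1, the most abundant regulator per length, had a log2 effect of -0.36 (adjusted p = 0.087, edgeR). Nlrc5, the class I counterpart of Ciita, had a log2 effect of 0.22 (adjusted p = 0.275, edgeR). Of 9 interferon-gamma-inducible GTPases 6 rose, among them Gbp4 by 2.08 (adjusted p = 0.00069, edgeR), Gbp9 by 1.75 (adjusted p = 0.00103, edgeR) and Irgm2 by 0.76 (adjusted p = 0.00573, edgeR).

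**Figure D3:**
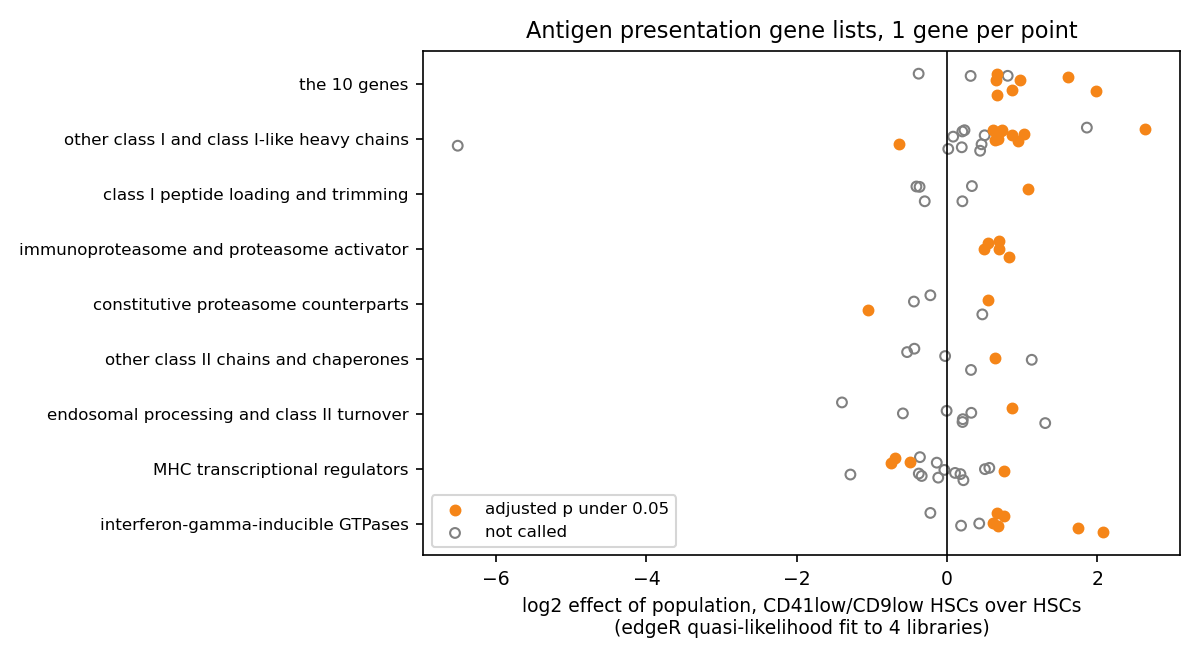
Log2 effect of population (CD41low/CD9low HSCs over HSCs, edgeR's fit to 4 libraries) for every tested gene of each list, filled where the adjusted p is under 0.05. In the immunoproteasome list all 5 points are filled and right of 0, while the regulators lie on both sides of 0, and the open point at the far left is H2-M2, which had 0 counts in both CD41low/CD9low libraries.

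The second comparison asks what loss of Gfi1b did to these genes. No gene of the 10 passed the test of genotype over both populations (edgeR's quasi-likelihood test, population as covariate), in which 0.781% of all genes were called (0.566% higher and 0.215% lower in KO) and 10.7% had an unadjusted p under 0.05. Of the 10 genes, 4 had an unadjusted p under 0.05 in that edgeR fit, and these were the 4 class II genes. Cd74 had a log2 effect of -0.69 (adjusted p = 0.111, edgeR), H2-Eb1 of -0.86 (adjusted p = 0.184, edgeR), H2-Ab1 of -0.40 and H2-Aa of -0.38 (adjusted p = 0.451 for each, edgeR). By DESeq2 none of the 10 passed. The effects of the 5 class I genes lay between -0.15 for Tap1 and 0.08 for B2m, and that of Ciita was -0.36 (adjusted p = 0.715, edgeR). The Cd74 call depended on the count filter and on the fit. With at least 50 counts required in 1 library its adjusted p was 0.0418 (edgeR), and in edgeR's older fit it was 0.00592, where H2-Eb1 passed too (adjusted p = 0.0483, edgeR).

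In HSCs no ratio of KO to WT was above 1.5 or below 0.6, the cutoffs used for single libraries, where 14.1% of 15910 genes were above and 10.3% below. H2-Eb1 was closest, with 565 counts in WT and 275 in KO (11.1 and 6.60 CPM) and a ratio of 0.601 (0.518 to 0.695), and it was below the cutoff when counts were scaled to library totals (log2 ratio -0.75). Cd74 had 1345 and 771 counts (26.5 and 18.5 CPM) and a ratio of 0.708 (0.647 to 0.774). H2-Aa was at 0.841 (0.784 to 0.902) and H2-Ab1 at 0.866 (0.806 to 0.931). Ciita had a ratio of 0.747 (0.640 to 0.870). The class I genes H2-K1, H2-D1, Tap1 and Tapbp lay between 0.874 and 0.904, and B2m at 1.03 (1.02 to 1.05). In total 9 of the 10 ratios were below 1, against 50% of all genes. Over all genes the KO/WT ratio in HSCs depended on exon length, with a median log2 of -0.199 in the shortest class and 0.158 in the longest. After exon length correction the same 9 stayed below 1, but most moved closer to it. The log2 ratio was then -0.056 for H2-K1 (uncorrected -0.148), -0.093 for H2-D1 (-0.194), -0.108 for H2-Ab1 (-0.207) and -0.33 for Cd74 (-0.499). Tap1 (-0.196) and Ciita (-0.59) moved farther from 1.

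In CD41low/CD9low HSCs 2 of the 10 genes were below 0.6 and none above 1.5, where 12.0% of 14844 genes were below and 13.5% above. H2-Eb1 had 483 counts in WT and 371 in the deeper KO library (37.9 and 19.4 CPM), a ratio of 0.512 (0.446 to 0.587). Cd74 had 1554 and 1287 counts (122 and 67.3 CPM), a ratio of 0.552 (0.512 to 0.595). H2-Ab1 was at 0.661 (0.605 to 0.723) and H2-Aa at 0.707 (0.650 to 0.768). In total 8 of the 10 ratios were below 1, against 49.0% of all genes. The 4 class II ratios were below 1 in both populations, as were those of 27.5% of all genes. The intervals of these 4 genes, which hold counting error only, excluded 1 in each population. The share of all genes with such intervals was not computed. The class I genes differed from one another by more than counting error. H2-D1 had a ratio of 1.19 (1.17 to 1.21) and B2m of 1.10 (1.07 to 1.13), while H2-K1 was at 0.94 (0.926 to 0.954), Tap1 at 0.902 (0.868 to 0.938) and Tapbp at 0.977 (0.936 to 1.02). H2-D1 was thus on opposite sides of 1 in the 2 populations, 0.874 (0.864 to 0.885) in HSCs. Whether the genotype effect differs between the populations was not tested, because 4 groups of 1 library leave no residual degree of freedom.

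**Figure D4:**
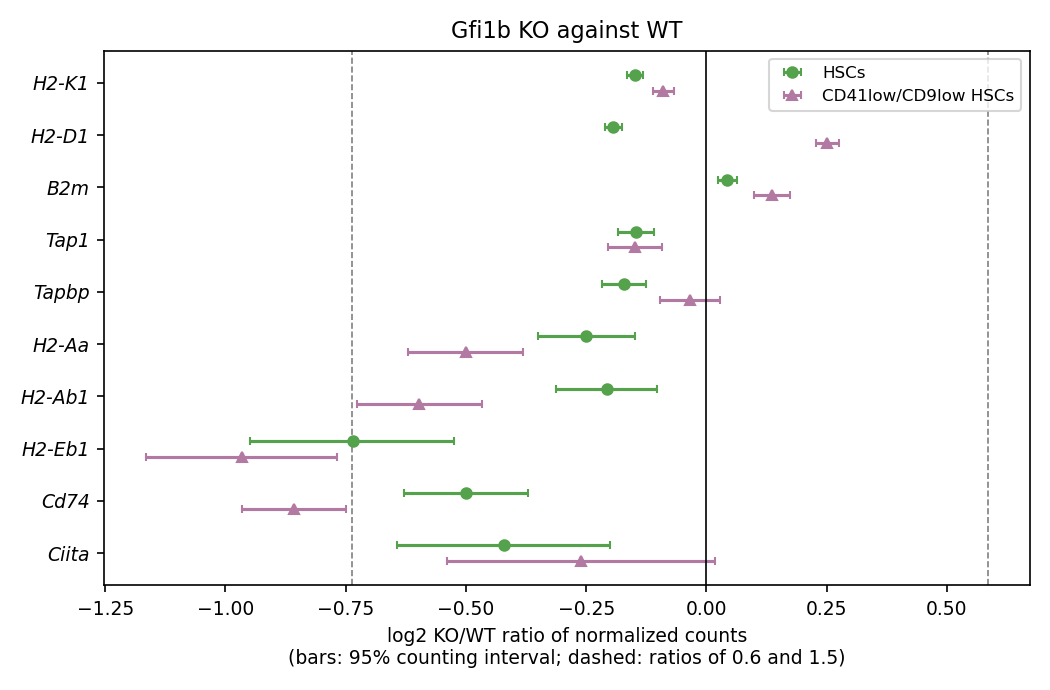
Log2 KO/WT ratio of normalized counts for each gene in HSCs (green) and CD41low/CD9low HSCs (purple), with 95% counting intervals as bars and dashed lines at ratios of 0.6 and 1.5. The class II genes H2-Eb1 and Cd74 lie farthest to the left in both populations, and H2-D1 lies left of 0 in HSCs and right of it in CD41low/CD9low HSCs.

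Among the other lists of the pathway 1 gene was called in the test of genotype, the interferon-gamma-inducible GTPase Gbp9, which fell by 1.53 on the log2 scale in KO (adjusted p = 0.0189, edgeR). It had 597 (WT) and 181 (KO) counts in HSCs, 551 and 270 in the CD41low/CD9low libraries, with ratios of 0.374 (0.315 to 0.443) and 0.327 (0.281 to 0.379). Gbp4, a relative, was below 0.6 in both populations as well, with ratios of 0.297 (0.244 to 0.358) and 0.552 (0.483 to 0.630), but did not pass (log2 effect -1.23, adjusted p = 0.0881, edgeR). A ratio below 0.6 in both populations was found for 2.45% of all genes. The other 7 GTPases ranged further up, with Gbp2 at 0.786 and 1.01 and Irgm2 at 0.980 and 1.13. The endosomal protease Lgmn was above 1.5 in both populations, with 76 and 171 counts in HSCs and 9 and 60 counts in the other pair (log2 effect 1.57, adjusted p = 0.319, edgeR), as were 3.32% of all genes. Irf1 had ratios of 0.685 (0.660 to 0.711) and 0.930 (0.887 to 0.975), and Nlrc5 of 1.01 and 0.952. Of the 6 further class II chains and chaperones, 2 had KO/WT ratios above 1.5 in HSCs and 4 had ratios below 1. The 2 were H2-Oa, at 1.76 (1.54 to 2.01), and H2-Ob, at 1.64 (1.51 to 1.79). In CD41low/CD9low HSCs their ratios were 1.09 and 1.003. Neither passed the test of genotype (adjusted p = 0.555 and 0.542, edgeR).

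Markers of other cells that carry class II were read beside these results. In B cells, the antigen receptor chain Cd79a, the surface protein Ms4a1 and the transcription factors Pax5 and Ebf1 mark the lineage, and in both CD41low/CD9low libraries these had 0 counts. Of 8 B cell markers 7 were at 0 in WT and 6 in KO CD41low/CD9low HSCs. Cd79b (17.2 to 30.8 CPM) supplied most of the summed 18.04 to 30.8 CPM of the list. Like the class II genes, Cd79b was higher in CD41low/CD9low HSCs (ratios of 1.42 in WT and 1.56 in KO). Its KO/WT ratio was 0.844 (0.766 to 0.929) for HSCs and 0.912 (0.799 to 1.04) for the other pair. Cd79b passed neither test (adjusted p = 0.0834 for population and 0.78 for genotype, edgeR). Of 4 B cell markers with enough counts, 3 had a population ratio below 1 in WT, and 3 a KO/WT ratio below 1 in HSCs. Dendritic cell markers were low, with sums of 8.65 (WT) and 19.7 (KO) CPM for HSCs, 11.4 (WT) and 6.69 (KO) CPM for CD41low/CD9low HSCs, and 3 and 5 of 8 at 0 in the latter. Clec9a, 1 of them, passed both tests, higher in KO (log2 effect 2.18) and lower in CD41low/CD9low HSCs (-4.00). It had 13.3 CPM of the sum in KO HSCs. Zbtb46 ran the other way, as the class II genes did, and passed neither test. Its KO/WT ratios were 0.515 in HSCs and 0.641 in CD41low/CD9low HSCs, and its ratios between populations 1.84 in WT and 2.32 in KO. Of 4 dendritic cell markers with enough counts, 3 KO/WT ratios were above 1.5 and 1 below 0.6 in HSCs, and 1 above and 2 below in CD41low/CD9low HSCs. Batf3 was at 0 in all libraries.

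Macrophage and monocyte markers, 9 genes all above 0 in every library, had summed levels of 36.4 (WT) and 44.3 (KO) CPM for HSCs, 56.9 (WT) and 20.8 (KO) CPM for CD41low/CD9low HSCs. They were highest in the same library as the class II genes, and 6 of 9 had a KO/WT ratio below 0.6 in CD41low/CD9low HSCs. Neutrophil markers, which include the granule genes S100a9, Ngp and Ltf, summed to 324, 438, 968 and 215 CPM in the same order, with 7 of 7 KO/WT ratios below 0.6 in CD41low/CD9low HSCs. In the test of population 4 of the 7 rose and 1, Mpo, fell. Between the KO libraries their sum was lower in CD41low/CD9low HSCs (438 and 215 CPM), where the class II genes were higher. In HSCs, where the class II genes had KO/WT ratios below 1, 7 of 7 neutrophil markers were above 1, and of the macrophage markers 6 of 9 were below 1 and 3 above. The summed class II genes were at 112, 87.8, 323 and 198 CPM. T and NK cell markers summed to 7.65 to 14.4 CPM, erythroid markers to 13.2 to 44.9 CPM and endothelial markers, Vwf and Pecam1 of which HSCs express too, to 232 to 838 CPM. The part of these cells in the class II differences was not tested.

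**Figure D5:**
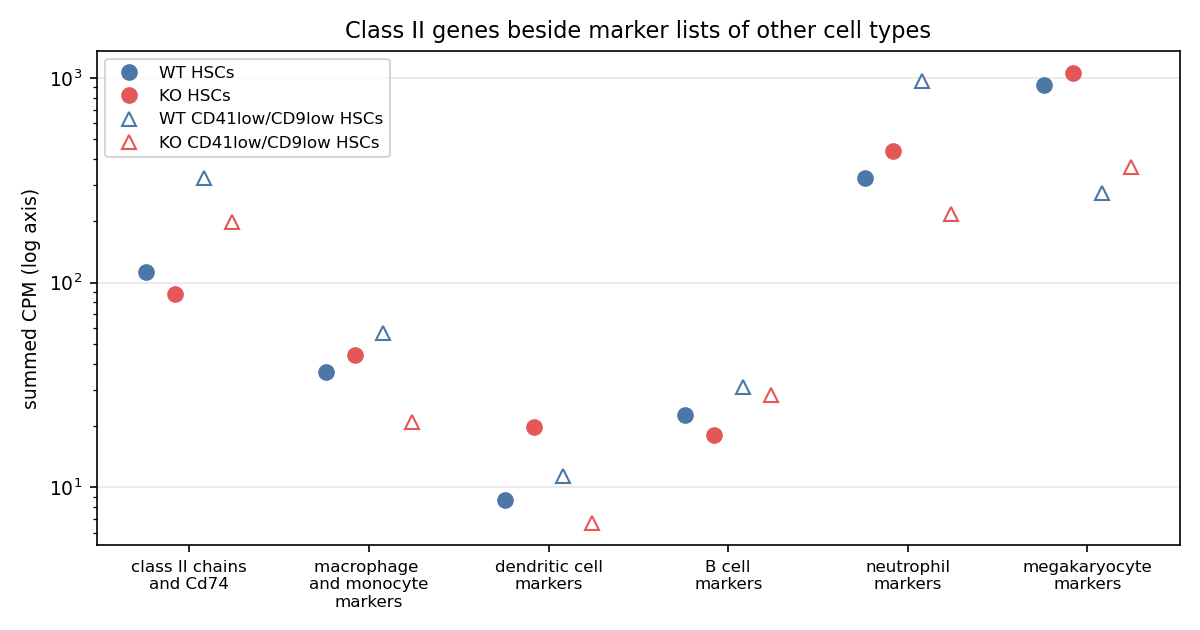
Summed CPM (log axis) of the 3 class II chains with Cd74 and of marker lists of other cell types, with 1 point for each library, circles for HSCs, triangles for CD41low/CD9low HSCs, blue for WT and red for KO. WT CD41low/CD9low HSCs have the highest class II, macrophage and neutrophil sums (323, 56.9 and 968), while KO HSCs lie above WT HSCs for both marker lists and below them for class II.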

How the data were processed

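The deposited counts per gene were made by the authors, who aligned reads of stranded mRNA libraries to mm10 with TopHat2 2.0.10, processed them with Samtools and counted them on Ensembl genes with HTSeq, without normalization. The HTSeq settings and Ensembl release are not given in the sources used here. The 5 closing lines of each file, which name no gene, were left out, and in every 100 counts on genes they add 60.1 to 105.3 reads without a feature and 96.2 to 121.6 reads not aligned uniquely.

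Gene names, positions and exon lengths came from GENCODE M21. KO/WT ratios used median-of-ratios size factors for each pair, ratios between populations those over all 4 libraries. Genes needed at least 10 counts in at least 1 library compared. Intervals are exact 95% (Clopper-Pearson) intervals. edgeR's quasi-likelihood test (glmQLFTest, TMM, Benjamini-Hochberg) was fitted to 4 libraries with genotype and population, with 1 residual degree of freedom. On simulated counts of independent libraries it called 93 of 100 genes raised 3-fold, 80 of 100 lowered 3-fold and 11 unchanged genes. The simulated biological coefficient of variation, the spread between libraries, was 0.1, against 0.266 in the data. The simulation therefore does not check the test at the spread of these data. Replicates in the fit may share mice, so p-values measure only the spread between these libraries. Alternatives were TMM, total-count and 4-library scaling, other filters, a pseudocount, a lower cutoff of 1/1.5, exon length correction, edgeR's older fit and DESeq2. Exon length correction between populations was added after seeing the data.

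The 10 genes and the lists were chosen with earlier results of these data known. Named genes were all 10 and, from each list, up to 3 past the cutoffs in both populations or called, and the most abundant. Matching to list symbols left out 7: H2-L, H2-Q8, H2-Q9, H2-T9, H2-Ea, Gbp5 and Gbp6. Nlrc5, Creb1, Clec9a, Zbtb46, Mpo, H2-T24, H2-Oa, H2-Ob, Cd40, Icosl, Fcgrt, Hfe, Irf8 and Cd80 were named after their values were seen. Some listed genes are not reported here by name. Software was R 4.3.3, edgeR 4.0.16, DESeq2 1.42.0, Python 3.11.15, numpy 2.4.6, scipy 1.17.1, pandas 2.3.3 and matplotlib 3.10.9.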

Additional observations from a re-analysis of the deposited data

Results flagged for a closer look

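Among the genes of the pathway lists, 2 lay past the cutoffs in opposite directions in the populations, and this difference was not tested. The share of all genes that did so was not computed, so these 2 are not set apart from other genes. In HSCs 14.1% of all genes were above 1.5 and 10.3% below 0.6, and in CD41low/CD9low HSCs 13.5% and 12.0%. Irf8, a transcription factor of monocytes, dendritic cells and B cells, had a KO/WT ratio of 1.9 in HSCs (587 and 905 counts) and of 0.412 in CD41low/CD9low HSCs (136 and 84 counts). The costimulator Cd80 had a ratio of 1.78 in HSCs (9 and 13 counts, interval 0.705 to 4.73). In CD41low/CD9low HSCs it had 16 counts in WT and 0 in KO, which with 3 counts as the floor of the library gives a ratio of at most 0.125.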

How the results depend on the processing

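The 7 genes called higher in CD41low/CD9low HSCs were also called under the other normalization, both other filters, edgeR's older fit and DESeq2, and 1 gene was called lower (B2m) in the last of these and in the older fit. For genotype, members called lower numbered 1 with at least 50 counts and 2 in the older fit, and the counts of all genes higher and lower in KO moved from 92 and 35 to 45 and 19 with RLE factors, 179 and 96 with at least 50 counts, 46 and 19 without a filter and 263 and 194 in the older fit. With at least 50 counts 1431 genes were above 1.5 and 792 below 0.6 in HSCs, and 982 and 702 in CD41low/CD9low HSCs, from 2248, 1639, 1998 and 1788, since fewer genes were tested. In HSCs 1 member was below the lower cutoff with TMM, total-count or 4-library scaling or a cutoff of 1/1.5. Length correction, the alternative that moved ratios most, gave HSC log2 KO/WT ratios of 0.27 for B2m and -0.59 for Ciita. Between the populations it took members above 1.5 from 7 to 5 in WT and from 8 to 6 in KO, with log2 ratios of 0.52 and 0.58 for H2-K1, 0.51 in WT for Tapbp and 0.47 in KO for H2-Ab1, and of 1.94 in WT and 1.48 in KO for Cd74. Leaving out a library leaves no residual degree of freedom and was not run. No paired analysis was possible because the labels give no replicate numbers, other than the fit to 4 libraries itself, in which populations are compared within genotype and genotypes within population.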

Other observations

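Costimulators, the surface proteins that accompany antigen presentation to T cells, were low in these libraries. Cd86 had the highest mean level per length of 5, with 3.27, 2.18, 7.70 and 5.54 CPM in WT HSCs, KO HSCs, WT CD41low/CD9low HSCs and KO CD41low/CD9low HSCs, and a log2 effect of population of 1.22 (adjusted p = 0.0796, edgeR). Icosl, at 5.02, 6.28, 8.80 and 3.29 CPM, was above Cd86 on the CPM scale in 3 of the 4 libraries. Cd40 had 6 and 5 counts in HSCs and 0 in both CD41low/CD9low libraries. Cd83 had 6 and 14 counts in HSCs and 0 and 33 in CD41low/CD9low HSCs. In the list of class I-like genes, Hfe, which regulates iron uptake, had KO/WT ratios of 2.93 (2.50 to 3.45) for HSCs and 1.34 (1.05 to 1.72) for the CD41low/CD9low pair, and the antibody receptor Fcgrt of 1.80 (1.67 to 1.94) and 1.17 (1.07 to 1.29), without passing the genotype test (adjusted p = 0.239 and 0.297, edgeR).

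The genes most like the class II chains and Cd74 over the 4 libraries, by the Euclidean distance of centred log2 CPM values to their mean profile among 11064 genes with at least 50 counts in each library, were Mn1 (0.0857), Sult1a1 (0.112), Inha (0.147), Lrtm2 (0.15) and Cxcr4 (0.194). H2-Eb1 itself was at 0.372, Cd74 at 0.628, H2-Aa at 0.427 and H2-Ab1 at 0.524. For H2-K1, H2-D1 and B2m the nearest were Nfe2l1 (0.0171), Dcaf8 (0.0206), Saraf (0.0265), Ubtf (0.0292) and Keap1 (0.034), nearer than the genes themselves (0.360 to 0.697). With 4 libraries such distances describe levels only.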
